A study of Homo sapiens with 29 samples.

Results

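Gene expression was compared between 3 BEAS-2B cultures exposed to 10 nM N-OH-PhIP and 3 cultures given the solvent alone, 6 of the 29 arrays of a dose series in which 9 doses from 0.1 to 1000 nM stand beside DMSO. The doses follow the array titles, while the design text gives 0.5 nM as the lowest, and the 0.5 nM group has 2 arrays here. The arrays were taken by their titles, and no measured value was used to choose them. BEAS-2B is a human bronchial epithelial line made immortal with a hybrid of adenovirus and SV40. It expresses the SV40 T antigen, a protein that binds p53, and all cultures are of this 1 line. All cultures, controls included, were in LHC-9 medium below confluence, contained 1% DMSO and were harvested after 24 h. The study asked for the lowest dose with a visible transcriptional effect, and the doses on either side, 5 nM and 50 nM with 3 arrays each, were used here as further references. The labels describe triplicate cultures, so the spread between arrays covers culture, amplification and hybridisation together.

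PhIP is a heterocyclic amine formed when meat is cooked and when tobacco burns. Cytochromes of the CYP1 family turn it into the hydroxylamine N-OH-PhIP, which acetyltransferases and sulfotransferases convert to esters that bind guanine in DNA. Such bulky adducts are removed by nucleotide excision repair. Adducts that remain can stall RNA and DNA polymerases, and cells with stalled polymerases commonly stabilise p53, which raises transcription of checkpoint, repair and death receptor genes.

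The arrays gave 1 intensity per probe set on a linear scale, already normalized by the authors, and all changes below are differences of log2(intensity + 16). Over the series the array medians ran from 35.8 to 38.4. The lowest correlation between arrays of a group was 0.995 at 10 nM and 0.990 in DMSO. The 3′ to 5′ log2 ratio of the actin and GAPDH control probe sets, a measure of RNA integrity, was 1.16 ± 0.05 (SD, n = 3) at 10 nM, 1.18 ± 0.04 in DMSO and 1.25 ± 0.06 at 5 nM. The exact two-sided permutation p was 1 against DMSO and 0.2 against 5 nM, where 3 arrays against 3 allow no p below 0.1. Of 8 epithelial markers 7 were tested and 0 passed against DMSO with limma. Of the 7, 4 had an unadjusted p under 0.05, as had 13.4% of all probe sets. EPCAM and KRT18 had DMSO means of 3923 and 4946. The summed intensity of the list was 20992 to 21787 in DMSO and 22667 to 24899 at 10 nM. None of the 6 endothelial markers and 1 of the 7 fibroblast markers reached the level needed for testing. Of the 8 leukocyte markers 4 did, and the summed intensity of that list was 390.0 to 424 in DMSO and 434 to 491 at 10 nM. How much these shifts of the marker lists contribute to the results was not tested.

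At 10 nM, 66 of 27307 tested probe sets differed from DMSO at an adjusted p under 0.05, or 0.242%. Of these 43 were higher (0.157%) and 23 lower (0.0842%), and they name 37 higher and 13 lower genes, since 12 carry no gene symbol and 2 carry several. The changes were small. In bulk RNA, fewer cells with a transcript and less of it per cell cannot be told apart. The median size was 0.47 on the log2 scale, 19 probe sets moved by at least 1.5-fold, 5 of them upward, and 1 moved by at least 2-fold. On each of the 66 probe sets the 3 arrays at 10 nM lay outside the range of the 3 DMSO arrays, a separation that was found on 5841 of all tested probe sets (21.4%). An unadjusted p under 0.05 was reached by 3649 probe sets (13.4%), 2122 of them higher. Over the 12174 tested genes the median change was 0.03, and 60.0% lay above 0.

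Single arrays decided how many calls were made. Without the second 10 nM culture 1 probe set was called, without the first or second DMSO culture 3 and 2, and without the first 10 nM culture 16. Without the third 10 nM culture 58 were called, and without the third DMSO culture 105. A fit of the 6 arrays alone called 32, of which 13 were among the 66. With the 4 doses from 0.1 to 5 nM as reference in place of DMSO, 1144 probe sets were called, 889 of them higher at 10 nM, and 44 of the 66 were among them.

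**Figure D1:**
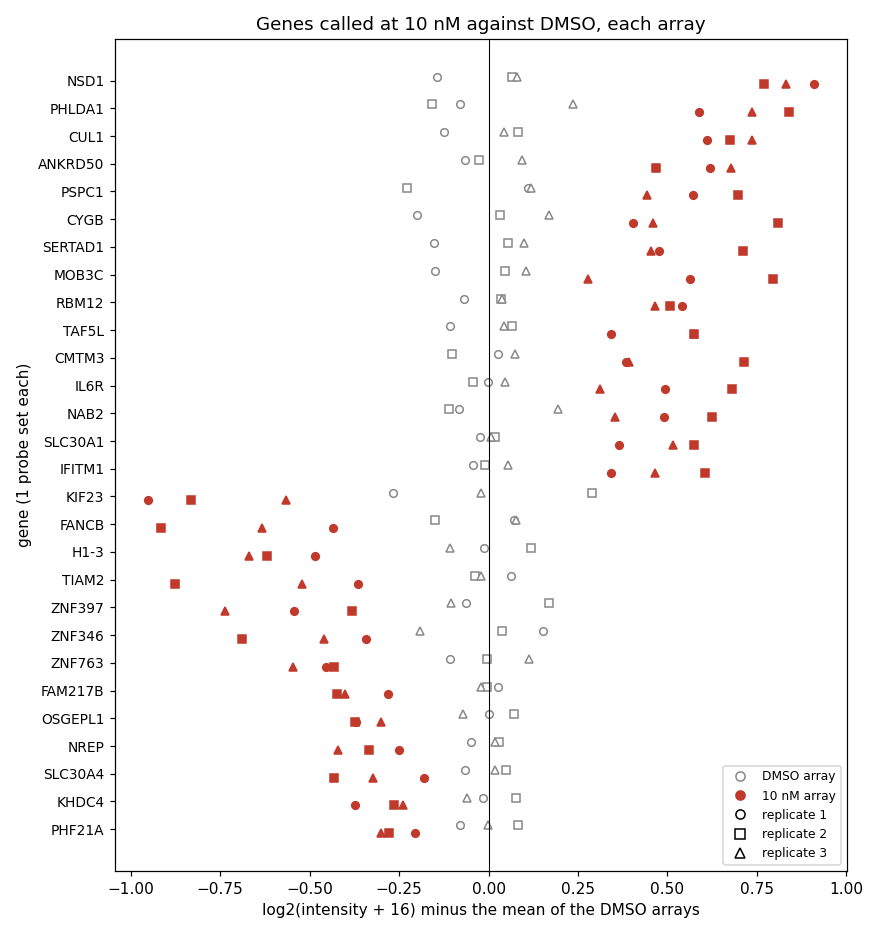
Each point is 1 array, as log2(intensity + 16) minus the mean of the 3 DMSO arrays, for 28 called genes, the 15 with the largest rise and the 13 that fell. Open grey points are DMSO arrays and filled red points 10 nM arrays, with replicates by symbol. The rule for naming these genes required the red points to lie on one side of all grey points. NSD1 is highest and KIF23 lowest among the mean changes.

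NSD1, a histone methyltransferase, gave the largest rise of a named gene. Its intensity on the called probe set was 119, 140 and 141 in DMSO and 264, 238 and 249 at 10 nM. NSD1 differed by 0.84 ± 0.11 on the log2 scale (SE, limma adjusted p = 0.0025). It was the single one of 35 named, called genes that stayed called whichever of the 6 arrays was left out, at 0.76 to 0.88. Of the 3 NSD1 probe sets 2 were above 0, 1 of them called, and the other read -0.06. The rise was thus called on 1 probe set and not across the gene. The NSD1 means were 179, 225, 179.9 and 154 from 0.1 to 5 nM and 212 at 50 nM, all above the DMSO mean of 133 and below each 10 nM array. The mean at 500 nM was 282.

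PSPC1, a core protein of nuclear paraspeckles, read 191, 148 and 192 in DMSO and 269, 295 and 245 at 10 nM. This is a difference of 0.57 ± 0.11 (adjusted p = 0.036), on 1 of 5 probe sets, 3 of which were above 0. RBM12, an RNA-binding protein, went from 727, 782 and 784 to 1118, 1092 and 1061, or by 0.50 ± 0.10 (adjusted p = 0.029). TAF5L, a subunit of histone acetyltransferase complexes, rose by 0.50 ± 0.10 on 1 of 2 probe sets and read -0.06 on the other. SYNCRIP, an mRNA-binding protein, rose by 0.36 on 1 probe set and read -0.11 on its brightest. H2BC12 was the 1 of 6 tested replication-dependent histone genes that rose, where 0.157% of all probe sets were called higher. It went from 537, 509 and 528 to 635, 679 and 780, by 0.40 ± 0.09 (limma adjusted p = 0.047). The call stayed in 0 of the 6 fits that left out an array. The histone gene H1-3, described below, is not in that list and was called lower, at -0.59. SYNCRIP lies outside the rule for named genes and was picked after its values were seen.

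PHLDA1, a pleckstrin-homology protein that rises after growth factor and stress signals, read 484, 458 and 607 in DMSO and 779, 930 and 865 at 10 nM on its most changed probe set. The difference was 0.72 ± 0.15 (limma adjusted p = 0.038). All 6 probe sets of PHLDA1 were above 0, at 0.16 to 0.72, and 2 passed the test. On that probe set the mean of 858 at 10 nM was the highest of the 10 groups, with 469.7 at 5 nM, 642 at 50 nM and 492 at 1000 nM.

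SERTAD1, a cofactor of cyclin D kinase and E2F, went from 532, 617 and 636 to 831, 982 and 818. It rose by 0.55 ± 0.11 (adjusted p = 0.036), and its means were 877 at 10 nM, 767 at 50 nM and 2137 at 1000 nM. NAB2, a corepressor bound by EGR transcription factors, read 166, 163 and 205 in DMSO and 255, 281 and 230 at 10 nM, a rise of 0.49 ± 0.09 (adjusted p = 0.029). IL6R, the receptor of interleukin 6, rose by 0.49 ± 0.09 from 259, 252 and 268 to 372, 425 and 326. Its second probe set read 0.33. On the called probe set IL6R read 329, 347 and 326 at 0.1 nM and 274, 346 and 321 at 5 nM. Its mean was 283 at 1000 nM and 259.7 in DMSO. Against 5 nM 0 of its 2 probe sets were called. Chosen after their values were seen, ETV5, an ETS factor that responds to ERK signalling, rose by 0.34, and DUSP14, a phosphatase of mitogen-activated kinases, by 0.28.

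The remaining higher genes named by the rule rose by 0.47 to 0.67. They were CUL1 (0.67), the scaffold of SCF ubiquitin ligases, ANKRD50 (0.59), an endosomal recycling protein, and CYGB (0.56), a globin of connective tissue and epithelium. MOB3C (0.54), a MOB family kinase adaptor, CMTM3 (0.50), a membrane protein of the MARVEL family, SLC30A1 (0.48) and IFITM1 (0.47), an interferon-induced membrane protein, made up the rest. CUL1 went from 534, 618 and 602 to 899, 940 and 983 on this probe set, while its other probe set moved by 0.03. ANKRD50 was dim, at 34.8, 36.2 and 40.7 in DMSO and 65.7, 57.6 and 69.0 at 10 nM. CYGB agreed on both probe sets, at 0.53 and 0.56, and CMTM3 on both, at 0.34 and 0.50.

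Of 29 tested p53 target genes 3 rose, where 0.157% of all probe sets did, and 0 fell. Of the 29, 27 were above 0, as were 60.0% of all genes, and the list's median was 0.16 against 0.03 for all genes. Called were ZMAT3, an RNA-binding regulator of splicing and stability, TIGAR, a fructose bisphosphatase that slows glycolysis, and FAS, a death receptor. ZMAT3 read 829, 872 and 982 in DMSO and 1194, 1185 and 1132 at 10 nM, higher on each array, by 0.38 ± 0.07 (adjusted p = 0.029). All 4 of its probe sets were above 0. TIGAR read 1069, 1168 and 1182, then 1388, 1390 and 1308, a rise of 0.25 ± 0.05 (adjusted p = 0.036).

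FAS read 989, 987 and 1071 in DMSO and 1214, 1251 and 1145 at 10 nM, a rise of 0.24 ± 0.05 (adjusted p = 0.036), and all 5 of its probe sets were above 0. All calls in the list rested on few arrays. 0 of the 29 were called when the first or second culture of either group was left out, 3 without the third 10 nM culture and 4 without the third DMSO culture, while 25 to 29 stayed above 0. The fit of the 6 arrays alone called 0 and the fit without the trend 1. The death receptor genes TNFRSF10A, which is not in the list, and TNFRSF10B, which is, were picked after their values were seen and rose by 0.29 ± 0.06 and 0.43 ± 0.10. For TNFRSF10B the list uses a brighter probe set, which read 0.10 and was not called.

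The standard reporters of p53 did not pass. CDKN1A, the kinase inhibitor that arrests the cycle, read 4588, 4479 and 4920 in DMSO and 5183, 5336 and 4796 at 10 nM, with overlap, at 0.13 ± 0.05 (adjusted p = 0.29). MDM2, the ubiquitin ligase that limits p53, gave 0.09 ± 0.05 on its brightest probe set (adjusted p = 0.45). All 9 of its probe sets were above 0, the highest at 0.33. GDF15, a secreted stress cytokine, gave 0.23 ± 0.07 (adjusted p = 0.15), and all 3 of its probe sets were above 0. Its groups did not overlap, as on 21.4% of all tested probe sets. Against 50 nM 0 of the 29 genes passed with limma, 9 had an unadjusted p under 0.05, and the list's median was -0.11 with 6 genes above 0.

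**Figure D2:**
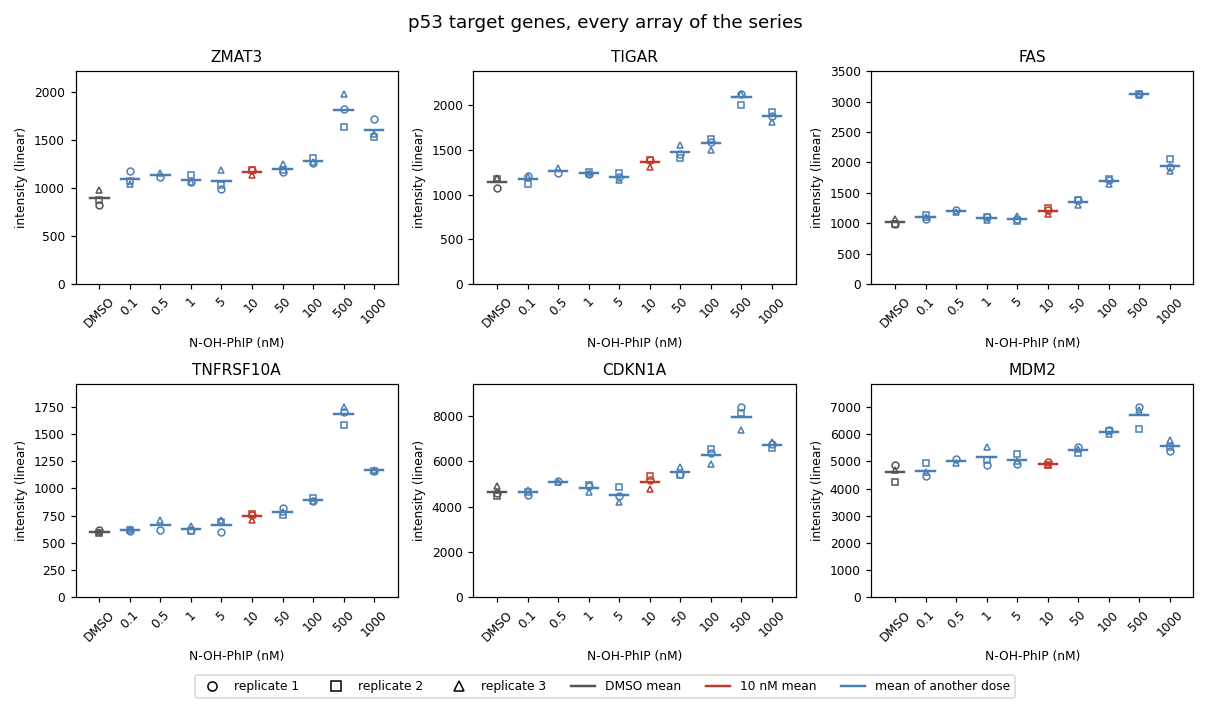
Intensity on a linear axis from 0 against dose, for 5 p53 target genes and the death receptor gene TNFRSF10A, with 1 point per array and a line at each group mean. At 10 nM (red) the ZMAT3 mean is 1170 against 895 in DMSO (grey), the FAS mean 1204 against 1016, and the highest group means of all 6 genes lie at 500 nM.

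Metallothioneins are small cysteine-rich proteins that bind zinc and copper, and MTF1, a zinc-sensing transcription factor, drives them through metal response elements in their promoters. All 6 tested metallothionein genes were above DMSO, as were 60.0% of all genes, with a median of 0.24. The test was passed by 3, where 0.157% of all probe sets were called higher. MT1G read 2047, 2115 and 2248 in DMSO and 2453, 2763 and 2865 at 10 nM, a rise of 0.33 ± 0.07 (adjusted p = 0.038). MT1E went from 4485, 4861 and 4909 to 5452, 5718 and 5723, by 0.24 ± 0.05 (adjusted p = 0.036).

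MT1F went from 2549, 2615 and 2789 to 3185, 3126 and 3050, by 0.23 ± 0.05 (adjusted p = 0.038). The others missed the threshold. MT1X gave 0.26 (adjusted p = 0.057), MT1H 0.24 (adjusted p = 0.069) and MT2A 0.17 (adjusted p = 0.23). Each was without overlap between the groups, as were 21.4% of all tested probe sets. The family's transcripts are nearly alike and these probe sets can detect several of them, so the 6 readings are not 6 independent measurements. Against DMSO 3 were called without the third DMSO culture, 1 without the first 10 nM culture and 0 without any of the other 4 cultures in turn. Median centring or dropping the level filter left 1, and the fits without the trend or of the 6 arrays alone left 0.

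SLC30A1, the zinc exporter of the plasma membrane and a known MTF1 target, was also higher. Its arrays read 805, 829 and 823 in DMSO and 1058, 1228 and 1177 at 10 nM, a difference of 0.48 ± 0.09 (limma adjusted p = 0.029). SLC30A4, a zinc transporter of intracellular vesicles, fell by 0.31 ± 0.06 (adjusted p = 0.036), from 1013, 1097 and 1074 to 935, 783 and 846. TFRC, the transferrin receptor that imports iron, was picked after its values were seen and rose by 0.35 ± 0.07 (adjusted p = 0.036).

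The metallothionein difference was larger against 5 nM, where all 6 genes rose and the median was 0.48. All 6 stayed called whichever of the 6 arrays was left out, with medians of 0.44 to 0.53. MT1G read 1658, 1877 and 1693 at 5 nM, below every DMSO array, and the difference from 10 nM was 0.62 ± 0.07 (adjusted p = 3.1e-05). MT2A read 4340, 5161 and 4287 at 5 nM and 6347, 7043 and 6940 at 10 nM, apart by 0.56 ± 0.06 (adjusted p = 3.1e-05). Against 50 nM 0 of the 6 passed with limma and 5 had an unadjusted p under 0.05, at a median of 0.22. MT1G at 50 nM read 2107, 2130 and 2189, within the range of its DMSO arrays.

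**Figure D3:**
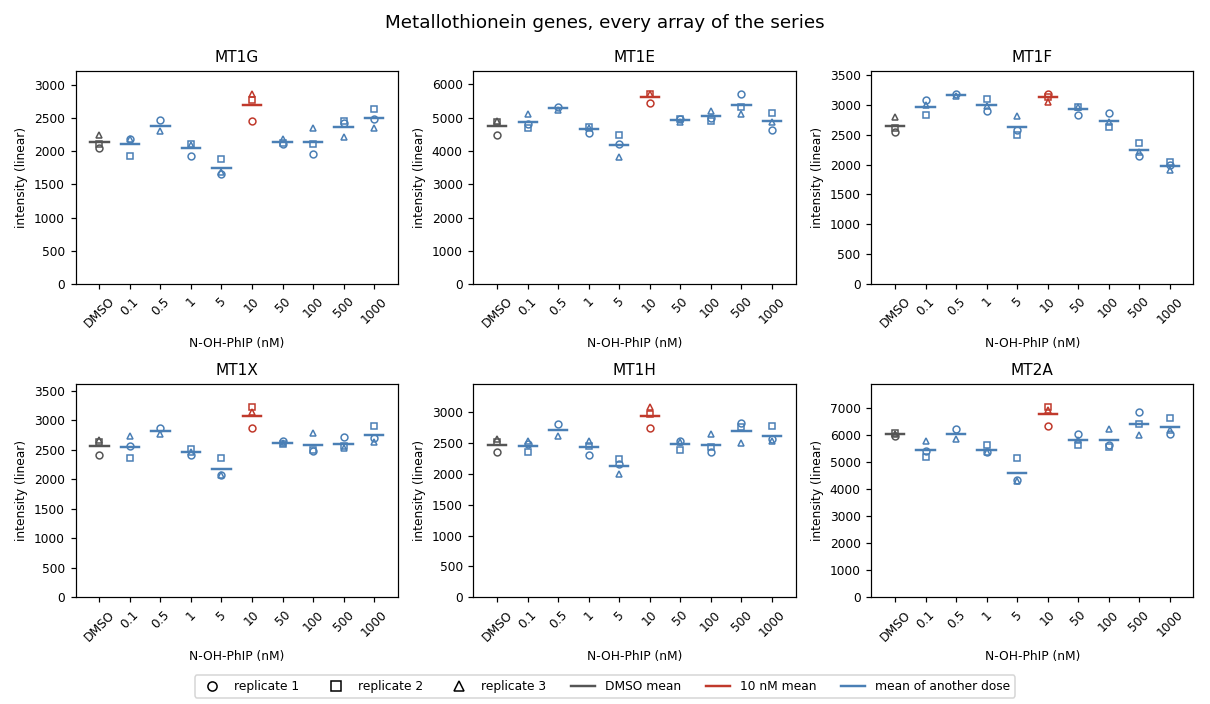
Intensity on a linear axis from 0 against dose for the 6 tested metallothionein genes, 1 point per array and a line at each group mean. The 10 nM mean (red) is the highest of the 10 groups for MT1G, MT1E, MT1X, MT1H and MT2A, and for these 5 the 5 nM mean is the lowest; MT1F is highest at 0.5 nM and lowest at 1000 nM.

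The promoters of 3 of these genes are shown because the known control sites of the family can be read in them. They are MT2A, MT1H and MT1X, the 3 tested members that missed the threshold against DMSO, and none is shown for MT1E, MT1F and MT1G, which passed. Each is the 250 bases before the transcription start in RefSeq on GRCh38.p14, all on the plus strand of chromosome 16. Capitals mark the metal response element core, TGCACNC or TGCGCNC, searched on both strands, where a run of capitals may hold overlapping matches.
MT2A, chr16:56608334-56608583: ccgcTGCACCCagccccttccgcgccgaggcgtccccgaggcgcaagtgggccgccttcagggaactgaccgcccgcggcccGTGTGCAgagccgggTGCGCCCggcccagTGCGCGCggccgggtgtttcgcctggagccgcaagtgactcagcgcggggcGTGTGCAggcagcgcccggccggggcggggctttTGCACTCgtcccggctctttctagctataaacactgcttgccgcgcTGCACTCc
MT1H, chr16:56669564-56669813: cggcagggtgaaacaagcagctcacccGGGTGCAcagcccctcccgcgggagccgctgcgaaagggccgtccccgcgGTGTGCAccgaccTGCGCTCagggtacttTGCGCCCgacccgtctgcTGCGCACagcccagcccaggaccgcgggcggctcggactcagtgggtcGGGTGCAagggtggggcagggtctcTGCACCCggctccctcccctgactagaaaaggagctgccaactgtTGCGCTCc
MT1X, chr16:56682220-56682469: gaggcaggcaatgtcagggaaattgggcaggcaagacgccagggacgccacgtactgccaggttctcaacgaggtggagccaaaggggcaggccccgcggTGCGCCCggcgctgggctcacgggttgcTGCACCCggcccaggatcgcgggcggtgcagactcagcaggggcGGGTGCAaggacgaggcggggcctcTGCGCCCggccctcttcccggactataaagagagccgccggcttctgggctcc
MT2A held 7 cores, MT1H 8 and MT1X 4 in this window. Of 35116 promoter windows of the same length in the RefSeq set 24.8% held at least 1 core, 0.37% at least 4 and 0.0313% at least 7. A core is a match of letters and no evidence of binding.

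The 13 lower genes included a mitotic kinesin, a crosslink repair protein, a linker histone and 3 zinc-finger proteins, and several were dim. Of the 23 lower probe sets 8 had a DMSO mean intensity under 100, against 3 of the 43 higher ones. KIF23, a kinesin of the central spindle, read 51.1, 82.6 and 63.5 in DMSO and 25.8, 29.4 and 38.5 at 10 nM, a change of -0.78 ± 0.16 (adjusted p = 0.037). Its other probe set read 0.02. FANCB, a subunit of the Fanconi anaemia core complex that acts on crosslinked DNA, went from 140.2, 118 and 141 to 93.9, 62.8 and 79.9. This was a change of -0.66 ± 0.12 (adjusted p = 0.029), and 3 of its 4 probe sets were below 0. FANCB was also below each DMSO array at 0.1 nM, at 86.2, 103 and 76.6. KIF23 was too, at 34.1, 48.9 and 39.4. Against 5 nM 0 probe sets of KIF23 and FANCB were called.

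H1-3, a linker histone, read 549, 603 and 512 in DMSO and 390.3, 354 and 342 at 10 nM, a change of -0.59 ± 0.13 (adjusted p = 0.044). Its means were 396, 384 and 362 at 0.1, 0.5 and 5 nM and 574 at 1 nM, so the low level was shared by most doses. TIAM2, an exchange factor for the GTPase RAC1, went from 436, 406 and 411 to 320.1, 220 and 286, or -0.59 ± 0.09 (adjusted p = 0.010). The mean was 275 here, 297 at 50 nM and 175 at 1000 nM. Of its 3 probe sets 1 was above 0.

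The zinc-finger genes ZNF397 (-0.55), ZNF346 (-0.50) and ZNF763 (-0.48) fell too, all 4 probe sets of ZNF397 and both of ZNF763 being below 0. OSGEPL1, which helps modify mitochondrial tRNA, fell by 0.35 ± 0.07 (adjusted p = 0.036) from 912, 959 and 867 to 702, 699 and 737, and its second probe set read -0.26. FAM217B (-0.37), NREP (-0.34), KHDC4 (-0.29), an RNA-binding splicing protein, and PHF21A (-0.26), a subunit of a histone demethylase complex, completed the list. At 0.1 nM KHDC4 read 2225, 2464 and 2213 and PHF21A 1409, 1295 and 1408, below each of their DMSO arrays. ZNF346 read 193, 205 and 205 there, also below each DMSO array. Against 5 nM 0 probe sets of ZNF346, FAM217B, KHDC4 and PHF21A were called, while ZNF397, ZNF763, NREP and OSGEPL1 had calls. The largest fall of any probe set, -1.24 ± 0.21 (adjusted p = 0.013), was on a probe set that has no gene symbol and read 120.4, 178 and 140.0 in DMSO and 58.4, 29.8 and 75.8 at 10 nM.

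Enzymes that act on the compound and its receptor pathway did not pass against DMSO. CYP1A1 stayed under the level minimum, at 20.3 to 32.6 in DMSO and 20.8 to 33.0 at 10 nM, and was not tested. CYP1B1, a hydroxylase induced through the aryl hydrocarbon receptor, read 172, 139.5 and 192 in DMSO and 235, 233 and 199 at 10 nM. The groups did not overlap, as on 21.4% of all tested probe sets, and the difference of 0.38 ± 0.11 had an adjusted p of 0.15. Of 12 tested genes of heterocyclic amine metabolism 0 passed with limma and 0 reached an unadjusted p under 0.05. Of all tested probe sets 0.242% passed and 13.4% reached an unadjusted p under 0.05. For the detoxifying enzymes NQO1 and HMOX1 the differences were 0.05 ± 0.04 (adjusted p = 0.64) and 0.14 ± 0.14 (adjusted p = 0.69).

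DNA repair lists had medians near that of all genes. Of all tested probe sets 0.242% passed with limma and 13.4% had an unadjusted p under 0.05. At that share, 0 calls in a list this short say little about the list. Among 26 genes of nucleotide excision repair, which removes bulky adducts, 0 passed with limma and 1 had an unadjusted p under 0.05. This was XAB2, at 0.25, and the list's median was 0.04. Among 28 genes of translesion synthesis and checkpoint signalling 0 passed and 0 reached an unadjusted p under 0.05, at a median of -0.02. Among 20 genes of the Fanconi and recombination pathways 0 passed and 1, RAD51C at -0.08, had an unadjusted p under 0.05. That count takes 1 probe set per gene and does not hold the called FANCB probe set, at -0.66. Among 17 of base excision and mismatch repair 0 passed and 2 had an unadjusted p under 0.05, at a median of 0.04.

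Against 5 nM, the next dose down, the difference was much wider, with 1665 probe sets called (6.1%), 1076 higher at 10 nM (3.94%) and 589 lower (2.16%). The changes were again moderate, 212 of them being at least 1.5-fold. Leaving out 1 array gave 606 calls without the third 5 nM culture, 613 without the second 10 nM culture, 805 without the third 10 nM culture, 1031 without the first 5 nM culture, 1057 without the first 10 nM culture and 1629 without the second 5 nM culture. With the 3′ to 5′ ratio given above as a covariate, 4089 probe sets were called, 50.7% of them higher in place of 64.6%. Of the 7 tested epithelial markers 5 rose against 5 nM, at a median of 0.41, and the summed intensity of the list was 19619 to 21265 at 5 nM. Of the 4 tested leukocyte markers 0 passed with limma, 2 had an unadjusted p under 0.05 and all were above 0, at a median of 0.22, with a summed intensity of 367 to 395 at 5 nM. Their part in the calls against 5 nM was not tested.

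Immediate early genes, which serum response factor and ERK switch on within minutes of a stimulus, led this comparison. Of 26 tested 19 rose, where 3.94% of all probe sets did, and 0 fell, with all 26 above 0 and a median of 0.57 against 0.01 for all genes. EGR1, on the most changed of its 3 probe sets, read 109, 190.1 and 146 at 5 nM and 574, 595 and 591 at 10 nM, groups far apart, by 1.90 ± 0.25 (adjusted p = 7.85e-05). FOS read 73.0, 93.9 and 112 at 5 nM and 296, 333 and 297 at 10 nM, apart by 1.59 ± 0.20 (adjusted p = 3.9e-05). EGR3 rose by 1.499 ± 0.20 and FOSL1, a FOS family member, by 1.39 ± 0.19. FNIP1, a folliculin-binding protein outside that list, rose by 1.41 ± 0.24 on 1 probe set, while its brightest probe set was called lower, at -0.27.

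EGR1 and FOS did not pass against DMSO at 10 nM. EGR1 read 520.2, 644 and 609.5 in DMSO, so that its difference from 10 nM was -0.0048 ± 0.25 (adjusted p = 0.997) on this probe set and -0.01 on the brightest. FOS read 292, 334 and 380.4 in DMSO, a difference of -0.11 ± 0.20 (adjusted p = 0.84). Of the 26 genes 0 passed against DMSO with limma and 10 had an unadjusted p under 0.05, as had 13.4% of all probe sets. Of the 26 genes 16 were above 0, as were 60.0% of all genes, at a median of 0.14. The fit of the 6 arrays alone called 3 of them higher. EGR1 means were 173, 284, 159.6 and 148 from 0.1 to 5 nM and 438, 452, 553 and 656 from 50 to 1000 nM. The means of the 4 lower doses were thus low, while those of DMSO, 10 nM and all higher doses were high. Single arrays overlapped. At 0.5 nM EGR1 read 366 and 201, where the third 50 nM array read 332 and the second 100 nM array 293. The labels used here name no batch, and whether the arrays from 0.1 to 5 nM were handled apart from the others was not tested, which bears on all calls against 5 nM and against the 4 lower doses. FOSL1 differed in that its 10 nM arrays, 504, 655 and 539, also lay above its DMSO arrays, 301, 327 and 368, at 0.74 ± 0.19 (adjusted p = 0.082).

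**Figure D4:**
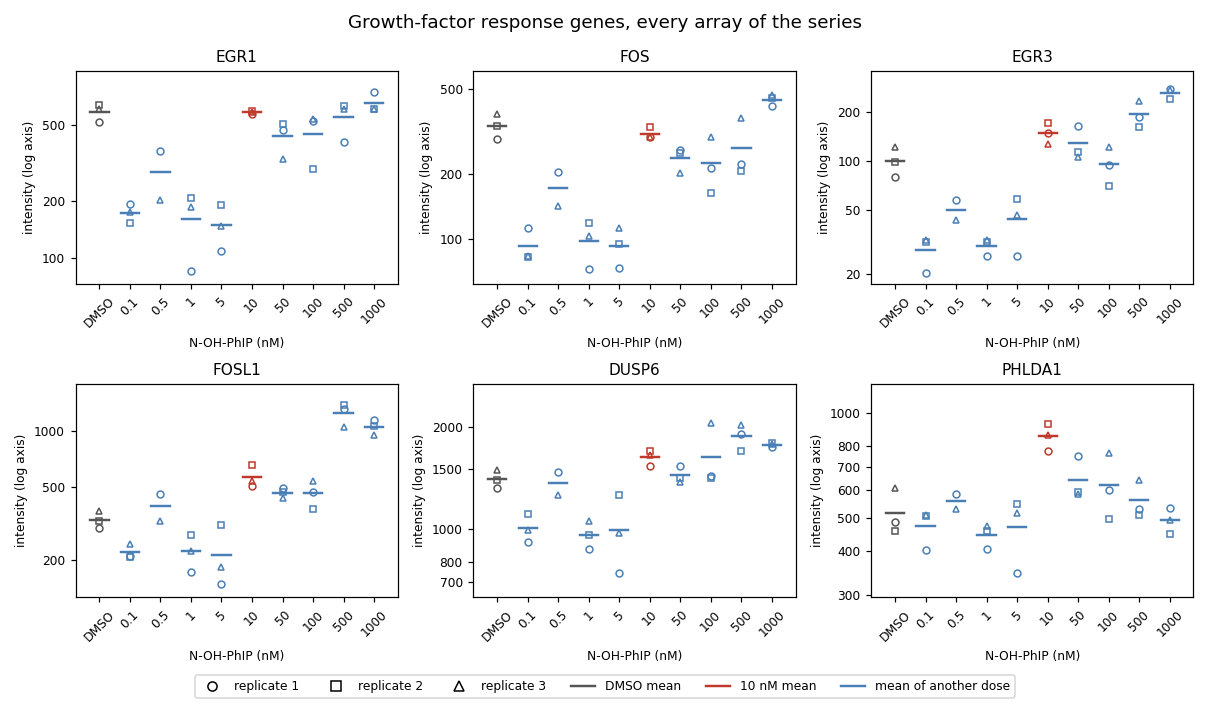
Intensity on a log axis against dose for EGR1, FOS, EGR3, FOSL1, DUSP6 and PHLDA1, 1 point per array and a line at each group mean. EGR1 and FOS means at 0.1, 1 and 5 nM lie well below both DMSO (grey) and 10 nM (red), and PHLDA1 has its highest mean at 10 nM.

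The EGR1 promoter is shown because serum response factor binds CArG boxes, the sites through which EGR1 answers ERK signals. It is the 250 bases before the RefSeq start on GRCh38.p14, plus strand, with the CArG boxes in capitals.
EGR1, chr5:138465229-138465478: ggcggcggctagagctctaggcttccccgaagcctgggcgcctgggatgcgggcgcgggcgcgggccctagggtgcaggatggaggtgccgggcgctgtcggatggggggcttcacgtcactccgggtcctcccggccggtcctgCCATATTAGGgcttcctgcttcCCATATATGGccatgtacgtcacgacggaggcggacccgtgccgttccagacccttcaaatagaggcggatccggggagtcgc
The window held 2 boxes, a pattern that reads alike on both strands. At least 1 CArG box was found in 1.16% of the 35116 windows and at least 2 in 0.0313%, or 11 windows.

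In other lists some members rose against 5 nM, where 3.94% of all probe sets did. Of 18 inflammatory and NF-kB target genes 13 rose, at a median of 0.52, among them IL1A, an epithelial alarm cytokine, by 0.88, and CXCL8, a neutrophil chemokine, by 1.38. That count was 3 without the second 10 nM culture and 7 without the first 5 nM culture, and for the early genes the lowest count was 14. Of 15 ligands and feedback regulators of the EGF receptor 5 rose, with HBEGF, a shed ligand, at 0.89 and SPRY4, an inhibitor of RAS signalling, at 1.09. Of 29 p53 targets 8 rose and 1, SPATA18, fell, with 3 rising without the second 10 nM culture. The genes lowest at 10 nM relative to 5 nM were SRSF1, a splicing factor, at -0.79 on 1 of 8 probe sets, NHLRC3 at -0.75, RTKN2 at -0.69, and SCN2A and SLC33A1, both at -0.68. Leaving out 1 array in turn kept the call in 6 of 6 fits for RTKN2, 5 for NHLRC3, 4 for SCN2A and 3 for SRSF1 and SLC33A1. Without the third 5 nM culture, which read 169.5 against 92.1 and 71.3, the SLC33A1 difference was -0.37 (adjusted p = 0.16).

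Against 50 nM, the next dose up, 7 probe sets passed (0.0256%), and 1398 had an unadjusted p under 0.05 (5.12%). MACROD2, a very long gene of a common fragile site whose product removes ADP-ribose, read 102, 112 and 77.5 at 10 nM and 37.2, 33.4 and 28.6 at 50 nM. It had the smallest adjusted p of this comparison, 5.3e-07 at 1.20 ± 0.11, and passed whichever of the 6 arrays was left out, at 1.104 to 1.329. Its DMSO arrays read 103, 96.6 and 93.5, a difference from 10 nM of -0.02 ± 0.11, and its mean was 11.9 at 100 nM. A second tested probe set of MACROD2 read -0.10.

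FHIT and WWOX, the genes spanning the most studied common fragile sites, and the deacetylase gene HDAC9 gave the same order of doses. FHIT read 179, 142 and 135 at 10 nM and 82.4, 75.8 and 105 at 50 nM, apart by 0.70 ± 0.13 (adjusted p = 0.047). WWOX read 162, 169 and 151, then 105, 95.5 and 97.7, apart by 0.61 ± 0.11 (adjusted p = 0.031), and all 4 of its probe sets were higher at 10 nM. HDAC9 read 229, 186 and 166, then 129, 104 and 88.3, apart by 0.77 ± 0.14 (adjusted p = 0.047).

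None of these passed against DMSO at 10 nM, where FHIT gave -0.04, WWOX 0.05 and HDAC9 -0.02. FHIT was still called in 1 of the 6 fits that left out an array, HDAC9 in 1 and WWOX in 0, at FHIT differences of 0.59 to 0.82. In the list of long fragile site genes 1 of 10 passed against 50 nM and 8 were above 0, at a median of 0.13 where all genes had -0.0036. Each gene is represented there by its brightest probe set, which for MACROD2 and WWOX was not the one called. Against DMSO 0 of the 10 passed and 2 had an unadjusted p under 0.05, DPYD, an enzyme of pyrimidine breakdown, at -0.34 (adjusted p = 0.21) and NBEA, a vesicle traffic protein, at -0.32.

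The other 3 calls were of small size. RPL22L1, a paralogue of a ribosomal protein, was higher at 10 nM than at 50 nM by 0.44 ± 0.08, RRM2, the small subunit of ribonucleotide reductase, by 0.20 ± 0.03, and RPS27L, a p53-responsive ribosomal protein paralogue, was lower by 0.21 ± 0.04. The adjusted p was 0.031, 0.0069 and 0.047. RRM2 read 4821, 4859 and 4728 at 10 nM and 4311, 4067 and 4203 at 50 nM. RPS27L read 4947, 5125 and 4887, then 5736, 5526 and 6032. Without 1 of the 6 arrays RRM2 was still called in 3 fits and the other pair in 0.

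**Figure D5:**
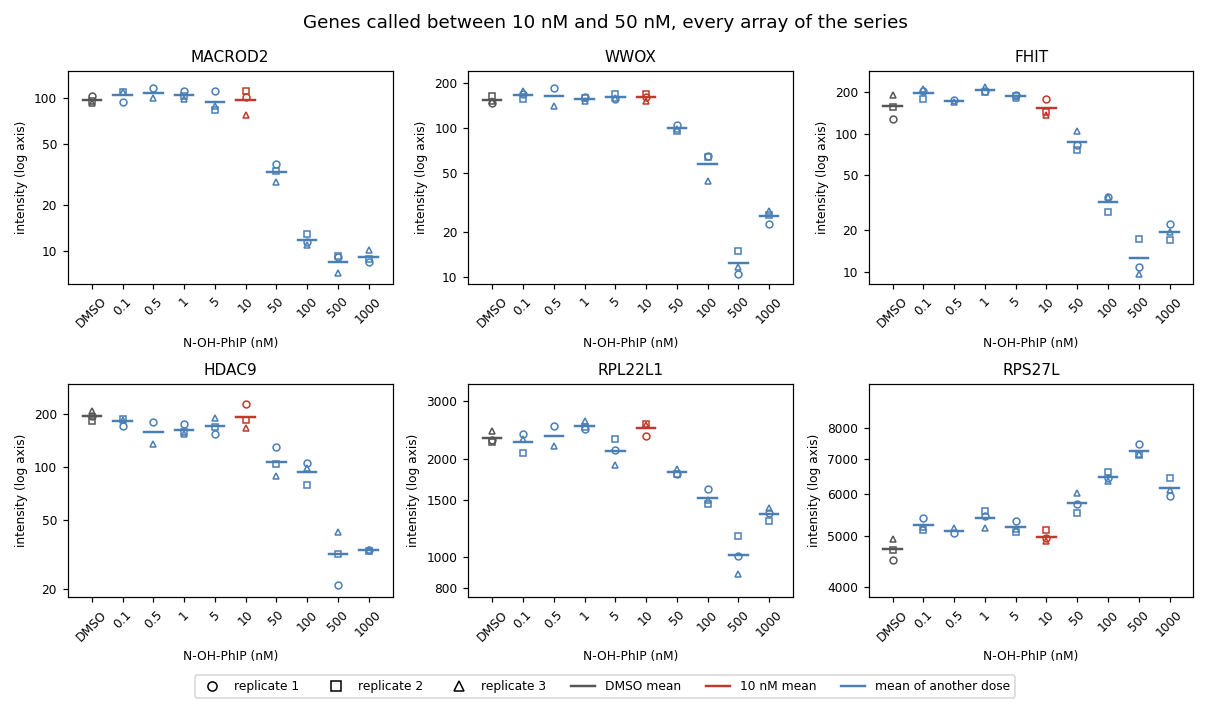
Intensity on a log axis against dose for 6 of the 7 genes called between 10 nM and 50 nM, 1 point per array and a line at each group mean. MACROD2, WWOX, FHIT and HDAC9 have lower means at every dose from 50 nM up than at 10 nM (red), and RPS27L has higher ones.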

How the data were processed

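Per the labels' protocols, cDNA for the arrays was made from total RNA with NuGEN Ovation kits and labelled with biotin. The submitters' processing notes name GCOS. The authors deposited 1 linear intensity for each probe set of an Affymetrix array, already normalized, with a method not given in the sources used here. Detection calls were not used here. Of 54675 probe sets 62 were controls. Gene names came from the platform annotation, and 41091 probe sets had 1 symbol, 1801 several and 11721 none.

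From these values log2(intensity + 16) was taken, where the offset damps changes at low intensity. The 27307 probe sets with a mean of at least 5.74 over all arrays, the median, were fitted in limma 3.58.1 (R 4.3.3) with 10 group means over 29 arrays (19 residual degrees of freedom), a mean-variance trend, two-sided tests and Benjamini-Hochberg adjustment at 0.05. The 3 comparisons share the 10 nM arrays, so their errors are not independent. The number of arrays, 3 a group, limits the precision, and the median standard error was 0.10.

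Named were the genes of most change, up to 15 a direction, among calls with 1 symbol and no overlap with DMSO. From each of 34 lists up to 4 called members were named, or the one of smallest p, and for the other doses up to 5 genes a direction. Always given were HMOX1, NQO1, CYP1A1, CYP1B1 and the p53 targets GDF15, MDM2 and CDKN1A. A list member stands for its brightest tested probe set. The members and lists were chosen with earlier results of these data known. The code was tested on simulated data. Alternatives were another offset, normalization, filter or variance model, a replicate block, the 3′ to 5′ ratio, fewer groups, a fold minimum and each array left out. Counts of list members under these were added after seeing the data. Same-numbered arrays did not deviate together (correlations of 0.10, 0.14 and -0.36 for 10 nM and DMSO), so the numbers were not taken to pair cultures. Promoters came from RefSeq, and figures from matplotlib 3.10.9.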

Additional observations from a re-analysis of the deposited data

How the results depend on the processing

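The 66 calls against DMSO became 28 without the mean-variance trend, 32 with only the 2 groups, 19 with a 1.5-fold minimum and 1144 against the 4 lower doses. Leaving out 1 array gave 1 to 105. Other settings gave 49 to 98, with 64.7% higher for an offset of 1, 56.8% for median centring, 57.1% with no level filter and 77.6% in the upper 25% of levels. The 1665 calls against 5 nM became 1001 with no level filter, 4089 with the 3′ to 5′ ratio, 414 with only the 2 groups and 212 with the fold minimum, and 606 to 1629 without 1 array. The 7 calls against 50 nM became 3 with an offset of 1, 2 with no level filter, 3 in the upper 25% of levels, 2 without the trend, 4 with the ratio and 4 with the fold minimum, and 1 to 3 without 1 array. With the replicate number as a replicate block the counts were 84 (65 shared), 1842 and 4. The cause of these moves was not tested, beyond the smaller fits and sets that some settings use. The 35 named, called genes kept their direction under each setting that tested them, which in the upper 25% of levels were 23. They were not followed under the fold minimum. None of the 35 overlapped between 10 nM and DMSO, so leaving out 1 of those arrays could not reverse a direction. Filter, variance model and fewer groups leave the change itself the same. Still called were 15 of the 35 without the trend, 6 with only the 2 groups and 24 against the 4 lower doses. Without 1 array, 1 to 28 were still called. No scaling moved the median of all probe sets by over 0.1.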

Other observations

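Epithelial structure and cell cycle genes are not described above. Of 26 tested keratin and junction genes 0 passed against DMSO with limma, 10 had an unadjusted p under 0.05 and 20 were above 0, at a median of 0.13. Over all probe sets 13.4% had an unadjusted p under 0.05, and 60.0% of all genes were above 0. KRT19, a keratin of simple epithelium, read 2853, 3061 and 3305 in DMSO and 3772, 4403 and 3621 at 10 nM. The difference was 0.35 ± 0.09 (adjusted p = 0.084) without overlap, as on 21.4% of all tested probe sets. Against 5 nM 10 of the 26 rose, where 3.94% of all probe sets did. Among them were KRT5, a basal cell keratin, at 0.91, KRT7 at 0.69 and SFN, a 14-3-3 protein of stratified epithelium, at 0.61.

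Cell cycle lists had small medians of opposite sign. For the counts against DMSO below, 13.4% of all probe sets had an unadjusted p under 0.05 and 60.0% of all genes were above 0. Of 35 genes of DNA replication and G1/S 0 passed against DMSO with limma, 10 had an unadjusted p under 0.05 and 27 were above 0, at a median of 0.07. CCND1, the G1 cyclin, read 406, 422 and 418 in DMSO and 511, 627 and 589 at 10 nM, at 0.45 ± 0.12 (adjusted p = 0.12). Of 38 genes of G2/M and mitosis 0 passed, 8 had an unadjusted p under 0.05 and 8 were above 0, at a median of -0.07. That count takes 1 probe set per gene and does not hold the called KIF23 probe set, at -0.78. HMMR, a microtubule-binding protein of the spindle, read 3806, 3648 and 3640 in DMSO and 3273, 3250 and 3364 at 10 nM, at -0.17 ± 0.04 (adjusted p = 0.096). Among 20 hypoxia and glycolysis genes 0 passed and 7 had an unadjusted p under 0.05, with PDK1, which restrains pyruvate entry to the mitochondrion, at 0.34 ± 0.09 (adjusted p = 0.082). HERPUD1, a protein of endoplasmic reticulum-associated degradation, read 2881, 3216 and 3146 in DMSO and 2614, 2613 and 2782 at 10 nM, at -0.20 ± 0.05 (adjusted p = 0.082), while it rose by 0.18 against 5 nM.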
